A study of Mus musculus with 2 samples.

Results

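Immediate early and heat shock genes were followed across the cell types of the mouse submandibular gland, a major salivary gland. The 32 genes were taken from a list of symbols and comprise 18 immediate early genes, 9 heat shock genes and 5 other early response genes. Of these, 31 had a row among the 27998 genes counted, and Cebpd was not analysed here. The tables held 1 p63 wild-type library and 1 p63 KO library of adult mice aged 12 weeks, whose glands were dissociated and profiled by droplet 3' single-cell RNA sequencing. The source label calls the cells epithelial progenitors while the protocol describes the whole gland, and immune, endothelial and red cell markers were present. The allele, the timing and the tissue of the p63 loss are not given in the labels, nor is any pooling of animals. With 1 library per genotype there was no test between genotypes: intervals below are 95% intervals for counting error only, and no difference has a replicate check.

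Immediate early genes are transcribed soon after a stimulus from factors that the cell already holds. Many encode transcription factors, such as the AP-1 subunits Fos, Fosb, Jun, Junb and Jund, and others encode brakes on the same response, such as the phosphatase Dusp1 and the RNA-binding protein Zfp36. Heat shock genes encode chaperones that help proteins fold, and the inducible ones are switched on by heat shock factor. Both groups are known to respond to tissue dissociation as well as to signals in the living tissue.

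The heat shock genes carried a promoter motif that few of the immediate early genes had. RefSeq promoter windows (GRCm38.p6, 250 bases before to 50 after a start site) were matched for 16 of 18 immediate early, 7 of 9 heat shock and 3 of 5 other early response genes; Egr1, Ier2, Hsp90aa1, Hspa8, Myc and Cebpd were not matched. The heat shock element pair, GAANNTTC or TTCNNGAA on both strands, was present in 6 of the 7 heat shock genes and in 2 of the 16 immediate early genes, Jun and Egr2, against 17% of all 27025 genes with a window. The heat shock element triple, which extends the pair by a further GAA or TTC unit after 2 bases, was present in Hsph1, Hspe1 and Hspd1 and in 0.662% of all genes. The 150 bases before the start are printed for Hspa1a (chr17:34972157-34972306, minus strand), Hspa1b (chr17:34959239-34959388, minus strand) and Hspb1 (chr5:135887769-135887918, plus strand), the inducible chaperones that the heat shock results turn on. Capitals mark the pair.
Hspa1a: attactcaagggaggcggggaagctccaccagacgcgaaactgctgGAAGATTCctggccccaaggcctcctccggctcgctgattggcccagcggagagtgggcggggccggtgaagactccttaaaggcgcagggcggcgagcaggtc
Hspa1b: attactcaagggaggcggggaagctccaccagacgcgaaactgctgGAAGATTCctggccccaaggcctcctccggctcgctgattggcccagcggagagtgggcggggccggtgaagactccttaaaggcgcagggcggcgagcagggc
Hspb1: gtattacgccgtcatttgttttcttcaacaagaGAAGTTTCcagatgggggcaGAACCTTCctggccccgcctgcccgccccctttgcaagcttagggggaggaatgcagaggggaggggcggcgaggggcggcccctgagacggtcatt
Hspa1a and Hspa1b are near-identical copies, with 149 of these 150 bases the same. Hspb1 held the pair at 2 places. Hspe1 and Hspd1, which encode the co-chaperonin and chaperonin of mitochondria, are neighbours whose windows overlapped by 285 bases. Their matches to the pair and the triple are the same stretch of bases. The 6 heat shock genes with the pair are therefore not all separate cases. The run of overlapping pairs that makes the triple is shown for Hspe1 (chr1:55088053-55088082, plus strand), beside the single pair of Jun (chr4:95052332-95052361, minus strand).
Hspe1: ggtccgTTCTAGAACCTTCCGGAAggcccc
Jun: ggcccagagaaGAATCTTCtagggtgaggt

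Other stimulus motifs were each matched in few of the early genes. The cAMP response element TGACGTCA was present in 2 of 16 immediate early genes, Btg2 and Dusp1, against 2.03% of all genes. It was also present in 1 of 3 other early response genes, Maff. The CArG box, the motif of serum response factor, was in 2 of the 16, Egr2 and Zfp36, against 1.81% of all genes. TTCNNNGAA, a motif of STAT factors, was present in Zfp36, 1 of the 16, and in 2 of the 3, Socs3 and Maff. It was present in 9.55% of all genes. Sites outside the windows were not read, and Egr1 was not matched. TGANTCA, the AP-1 motif, was in none of the matched members and in 8.97% of all genes. Sites are printed with the motif in capitals for Dusp1 (chr17:26508597-26508626, minus strand), Btg2 (chr1:134079303-134079332, minus strand), Zfp36 (chr7:28379267-28379296, minus strand, CArG box) and Socs3 (chr11:117969501-117969530, minus strand, STAT motif).
Dusp1: ggtagggcgggTGACGTCAccgcccggtca
Btg2: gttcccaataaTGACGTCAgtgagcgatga
Zfp36: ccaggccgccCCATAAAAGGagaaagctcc
Socs3: gaaaccagccTTCTTAGAAgggaggggggg
A match describes letters in a window and does not show that a factor is bound there.

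The wild-type library held 8811082 UMIs (tags that each mark 1 captured molecule) in 1970 barcodes and the KO library 11828669 in 4726. A barcode was kept as a cell if it had 200 genes or more and a mitochondrial share below 20%, which left 1663 and 2423 cells with median depths of 3406 and 2088 UMIs. A mitochondrial share of 20% or more applied to 12.4% of the wild-type barcodes and to 40.7% of the KO barcodes. The libraries shared 7 barcode sequences among kept cells. Trp63, the gene of p63, had 149 and 20 UMIs in kept cells. Each library was clustered alone without the members, and clusters were named from marker genes, written as X-like. In all, 166 and 266 cells stayed unnamed. The comparison covers the classes that reached 50 cells on both sides: acinar-like (343 wild-type and 176 KO cells), basal duct-like (383 and 114), endothelial-like (68 and 313), granular convoluted tubule-like (147 and 444), intercalated duct-like (198 and 256), ionocyte-like (124 and 288) and myoepithelial-like cells (50 and 85). The KO basal duct-like cluster rested on 3 markers, Krt14, Krt17 and Lamb3.

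Both gene groups made up a larger share of RNA in the KO library. Over all kept cells, immediate early genes were 1.31% of the wild-type UMIs and 1.99% of the KO UMIs. Heat shock genes were 1.46% and 2.15%, and the other early response genes 0.0628% and 0.111%. Fos (ENSMUSG00000021250, chr12:85473890-85477273, GRCm38), Jun and Junb supplied 41.9% and 44.6% of the immediate early UMIs. Hspa1a (ENSMUSG00000091971, chr17:34969190-34972156), an inducible Hsp70, with Hspa8, the constitutive Hsp70, and Hspb1, a small heat shock protein, supplied 60.4% and 64.4% of the heat shock UMIs. Among the other early response genes Maff led in the wild-type library with 43.3% and Socs3 (ENSMUSG00000053113, chr11:117966079-117970047) in the KO library with 37%. These totals mix cell types whose numbers differ between the libraries, so classes are given apart from here on.

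Of the classes, myoepithelial-like cells, the contractile cells around acini and ducts, were at the top of both groups in both libraries. Their summed immediate early level was 25412 CPM (24783 to 26054) in wild-type and 38867 CPM (38156 to 39587) in KO cells, where CPM is UMIs per 1000000 UMIs of the class. Their heat shock level was 28172 CPM (27508 to 28847) and 43959 CPM (43203 to 44725). In the wild-type library, intercalated duct-like cells followed for immediate early genes with 24565 CPM, an interval that overlapped that of myoepithelial-like cells, and then ionocyte-like cells with 22167. Taken alone, the smaller wild-type basal duct-like cluster described below stood above all of these at 27134 CPM (26657 to 27618). Its heat shock interval, 27265 to 28237, overlapped that of myoepithelial-like cells. In the KO library endothelial-like cells came after myoepithelial-like cells for immediate early genes, with 30139 CPM, and then basal duct-like cells with 27032. Ionocyte-like cells stood ninth of the 13 KO classes there, the small and the unnamed ones counted, at 14581 CPM. Acinar-like cells, the secretory cells of the gland, were lowest in both libraries for immediate early genes, at 3335 and 4968 CPM. Over the 11 classes and unnamed clusters with at least 50 cells in a library, the summed levels of both groups went together (Pearson r 0.776 and Spearman rho 0.609 for the wild-type library, 0.716 and 0.736 for the KO library). This is a description, since the points share a library and both levels of a point share a total.

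**Figure D1:**
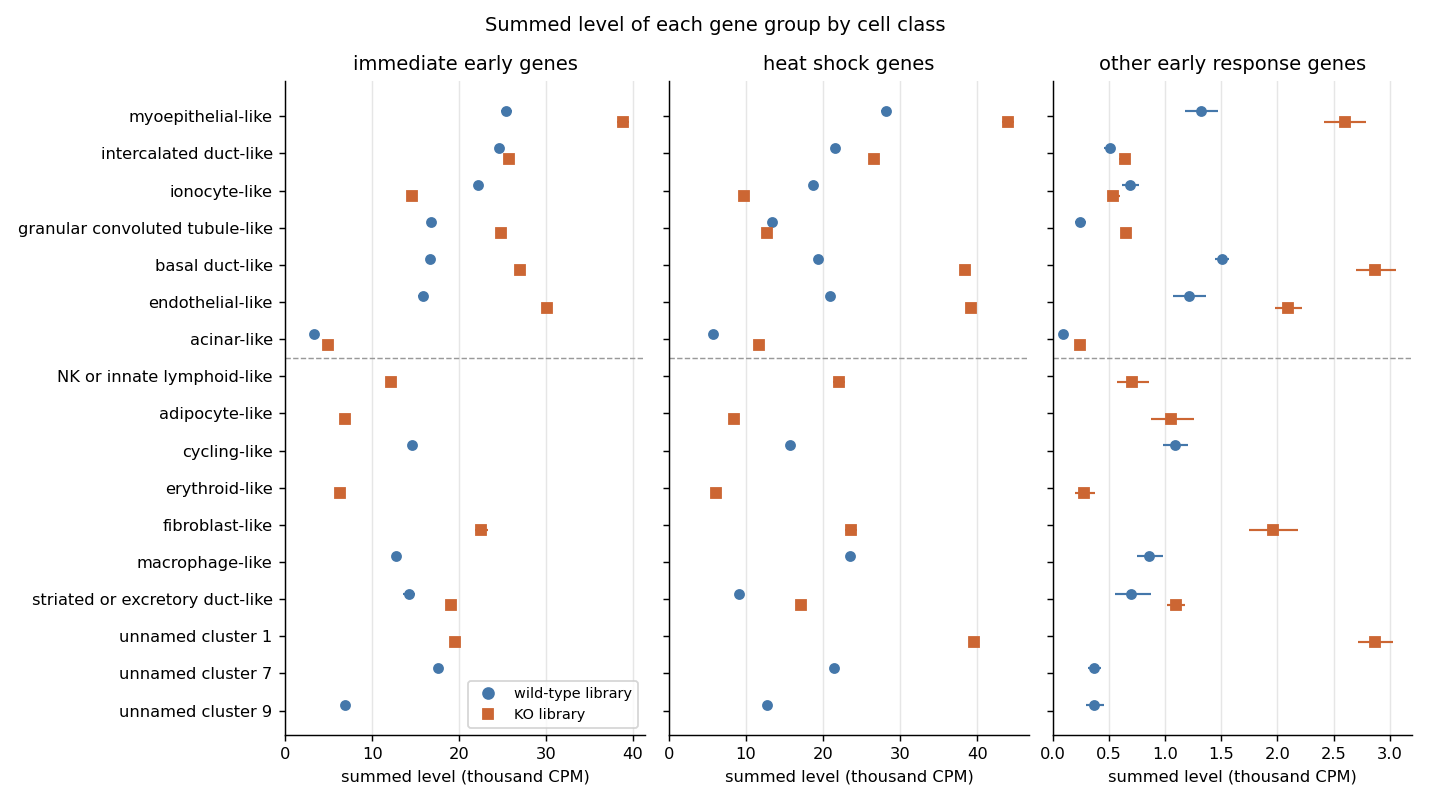
Summed level of immediate early, heat shock and other early response genes (x axes, 1000 CPM) in each cell class (y axis), with 95% counting intervals; circles are the wild-type and squares the KO library, and classes above the dashed line were compared. Ionocyte-like cells had both main groups lower in the KO library (14581 against 22167 and 9744 against 18687 CPM).

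The direction of the difference varied with the class. Immediate early genes were at a higher level in the KO library in endothelial-like cells, 15791 against 30139 CPM (ratio 1.91, 1.84 to 1.98), and in basal duct-like cells, 16677 against 27032 (1.62, 1.58 to 1.66). The ratio was 1.53, 1.48 to 1.58 in myoepithelial-like and 1.48, 1.44 to 1.52 in tubule-like cells. It was 1.05, 1.03 to 1.07 in intercalated duct-like cells, and in ionocyte-like cells the KO level was 1.52-fold (1.48 to 1.56) lower. Heat shock genes had ratios of 1.98, 1.94 to 2.02 in basal duct-like, 1.87, 1.82 to 1.93 in endothelial-like, 1.56, 1.52 to 1.61 in myoepithelial-like and 1.23, 1.21 to 1.25 in intercalated duct-like cells, and were 1.92-fold (1.86 to 1.98) lower in ionocyte-like cells. Tubule-like cells parted the groups: their heat shock ratio was 0.957, 0.928 to 0.987, and heat shock over immediate early UMIs was 0.793 (0.766 to 0.822) in wild-type and 0.513 (0.502 to 0.523) in KO cells. In acinar-like cells the ratios were 1.49, 1.44 to 1.54 for immediate early and 2.05, 2.0 to 2.1 for heat shock genes. The acinar immediate early ratio was above 1 in 10 and below 1 in 8 of 18 other settings, among them 0.891 with TMM, a trimmed-mean scaling between libraries, so it has no firm direction. Cells of a class also differed in depth between the libraries. Endothelial-like medians were 2919.5 wild-type and 1522 KO UMIs, the latter below the 2175 UMIs of the shallowest kept wild-type cell. Whether this difference in the kept cells bears on the ratios was not tested.

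Single members were read with a size rule in place of a test: the gene needed 50 UMIs over the pair of libraries, and the whole interval of its ratio had to lie past 2-fold. Of 122 pairs of an immediate early gene and a class with enough UMIs, 15 (12.3%) passed upward and 2 (1.64%) downward in the KO library. For heat shock genes these were 7 (11.1%) and 5 (7.94%) of 63 pairs, and for the other early response genes 7 (26.9%) and 0 of 26. Over all 21862 gene-class pairs, 3.87% were higher and 2.04% lower. At a given ratio past 2-fold the rule is met more readily with more UMIs. Shares over all genes, here and below, were not matched to the members for UMI number. Of all genes, 12.5% were higher in acinar-like, 1.73% in basal duct-like, 4.05% in endothelial-like, 2.15% in tubule-like, 1.7% in intercalated duct-like, 1.96% in ionocyte-like and 3.59% in myoepithelial-like cells, while 0.957%, 2%, 1.93%, 1.36%, 2.22%, 3.39% and 2.73% were lower in the same order. The median log2 ratio of the heat shock genes was 1.02 in basal duct-like and -1.13 in ionocyte-like cells, beside 0.031 and -0.038 over all genes. With TMM scaling the background changed: over all gene-class pairs 2.42% were higher and 2.58% lower, and in acinar-like cells 3.25% and 4.9%. The median log2 ratio of all genes moved from 0.47 to -0.085 in acinar-like, from 0.031 to -0.12 in basal duct-like and from -0.038 to 0.081 in ionocyte-like cells. The members past the rule were then 10 higher and 1 lower immediate early, 4 and 3 heat shock and 6 and 0 other early response pairs. Pairs of 1 class share its cells and its total, so they are not separate observations.

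**Figure D2:**
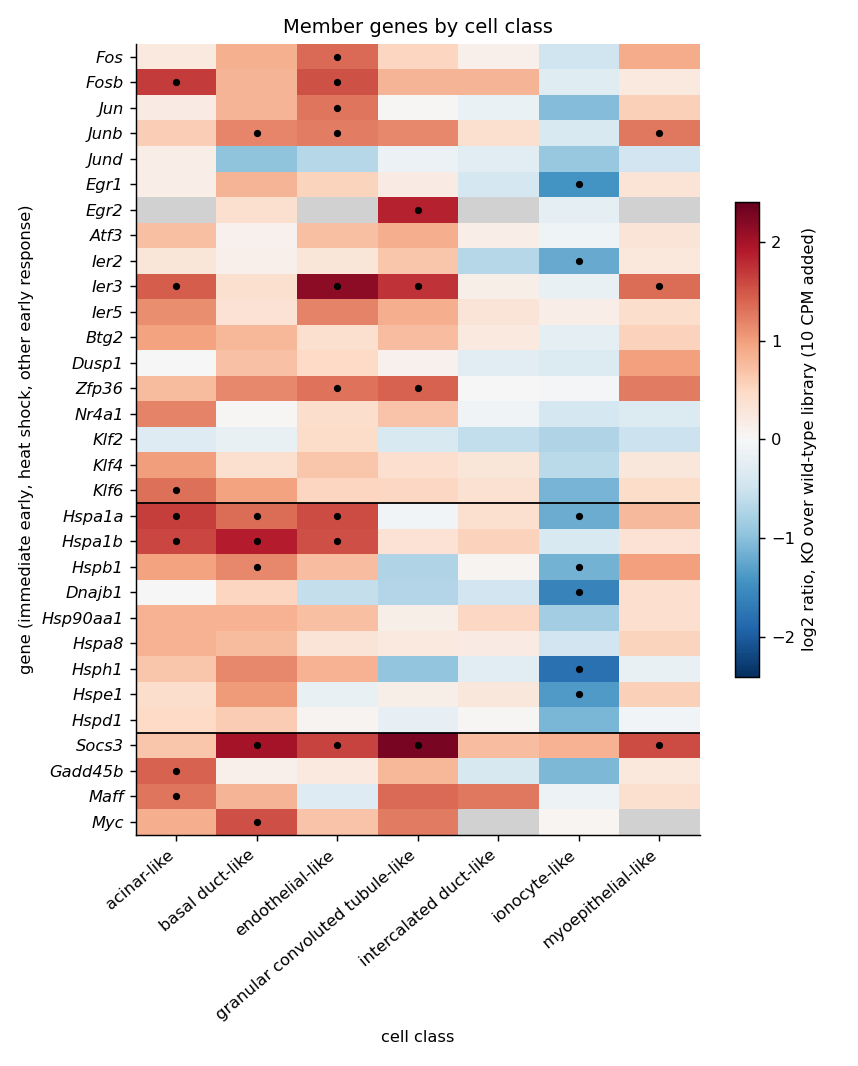
Log2 ratio of KO over wild-type library (colour, 10 CPM added to both sides) for each of 31 members (rows) in 7 cell classes (columns); dots mark pairs past the size rule and grey pairs under 50 UMIs. All 7 pairs past the rule in the lower direction lie in the ionocyte-like column, and Socs3 and Ier3 have 4 dots each.

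Among the AP-1 subunits, Fos stood at 2335 and 5993 CPM in wild-type and KO endothelial-like cells (2.57-fold, 2.34 to 2.82), the class in which it passed the rule. It was at 2272 and 4111 CPM in basal duct-like, 5489.6 and 10209 in myoepithelial-like, 4738 and 6785 in tubule-like and 4515 and 3222 in ionocyte-like cells. Fos was thus higher by value in 6 of 7 classes, and in 5 with TMM scaling. Junb, another AP-1 subunit, passed the rule in endothelial-like (1869.9 and 4418 CPM, 2.36-fold, 2.13 to 2.63), basal duct-like (1554 and 3532 CPM, 2.27-fold, 2.12 to 2.43) and myoepithelial-like cells (1896 and 4594 CPM, 2.42-fold, 2.18 to 2.7); the basal duct-like call was lost with TMM scaling. Jun passed in endothelial-like cells (1861 and 4528 CPM, 2.43-fold, 2.19 to 2.71). Fosb, a paralog of Fos, passed in endothelial-like (421 and 1228 CPM, 2.92-fold, 2.35 to 3.66) and acinar-like cells (34.6 and 133 CPM, 3.84-fold, 2.95 to 5.02). The inducible subunits therefore passed together in endothelial-like cells.

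Jund, a subunit known for steady expression, had a ratio above 1 in 1 of 7 classes, acinar-like cells, and in 0 with TMM scaling. It was at 624 and 314 CPM in basal duct-like, 899 and 556 in endothelial-like and 1061 and 769 in myoepithelial-like cells, and passed the rule in no class. Within a library, Fos over Jund UMIs was 3.64 (3.39 to 3.91) in wild-type and 13.1 (10.8 to 16.1) in KO basal duct-like cells, and 2.6 (2.2 to 3.07) and 10.8 (9.59 to 12.2) in endothelial-like cells. Junb over Jund was 2.49 (2.31 to 2.69) and 11.3 (9.25 to 13.8) in basal duct-like cells. Both quotients were higher in the KO library by value in all 7 classes, and they do not depend on the class total. In basal duct-like cells both KO values also lay above those of either wild-type cluster described below, 2.15 (1.95 to 2.37) and 6.49 (5.77 to 7.31) for Fos and 1.6 (1.44 to 1.77) and 4.2 (3.72 to 4.75) for Junb. Fos over Jund was not higher in each KO cluster: the larger ionocyte-like one had 3.77 (3.06 to 4.68) beside 4.91 (4.44 to 5.43) in the wild-type cells. In acinar-like cells the intervals of Fos over Jund overlapped, 4.56 (4.09 to 5.09) and 4.82 (4.12 to 5.68).

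Of the zinc finger factors, Egr1 (ENSMUSG00000038418) was lower past the rule in ionocyte-like cells, 2001 and 732 CPM (2.74-fold lower, 2.46 to 3.04), also with TMM scaling. In the larger of the KO ionocyte-like clusters described below it was 4.39-fold lower, and in the smaller 1.86-fold (1.64 to 2.1), which did not pass, and the call was absent with no filter on mitochondrial share and cells clustered anew. In the other 6 classes its ratio ran from 0.741 to 1.77. Egr2, a relative of Egr1, was the scarcest member with 154 and 270 UMIs in kept cells. It passed in tubule-like cells on 6 and 87 UMIs (14.3 and 77.5 CPM, 5.43-fold, 2.39 to 15.2). Atf3, a stress-induced factor, and the orphan receptor Nr4a1 passed in no class, with ratios of 0.93 to 1.84 and 0.742 to 2.71. By class, both were highest in myoepithelial-like cells in both libraries.

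The Klf factors differed in where they were expressed. Klf2, a flow-responsive factor of blood vessels, was highest in endothelial-like cells in both libraries, 1051 and 1421 CPM. The next class was 1.79-fold below in the wild-type library (macrophage-like cells) and 7.05-fold below in the KO library (myoepithelial-like cells). Endothelial-like cells were also the class in which its KO ratio was above 1 (1.35, 1.17 to 1.57), while in the other 6 it was 0.57 to 0.879. Klf4, a regulator of epithelial and vascular differentiation, was highest there by value as well, 483 and 768 CPM, with an interval that overlapped that of basal duct-like cells in both libraries. Klf6 passed the rule in acinar-like cells (172 and 446 CPM, 2.6-fold, 2.29 to 2.95), though not between the Smgc-led acinar clusters described below (445 and 813 CPM).

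Ier3, an early gene that limits cell death, passed the rule in more classes than any other immediate early gene. It was at 251 and 1148 CPM in endothelial-like (4.58-fold, 3.48 to 6.14), 102 and 363 in tubule-like (3.55-fold, 2.59 to 4.98), 329 and 854 in myoepithelial-like (2.6-fold, 2.01 to 3.38) and 18.1 and 66.9 in acinar-like cells (3.71-fold, 2.55 to 5.43). With TMM scaling it passed in endothelial-like and tubule-like cells. Zfp36, which speeds the decay of cytokine messengers, passed in endothelial-like (434 and 1081 CPM, 2.49-fold, 2.01 to 3.12) and tubule-like cells (352 and 950.5 CPM, 2.7-fold, 2.27 to 3.23). Ier2 was lower past the rule in ionocyte-like cells, 1091 and 466 CPM (2.34-fold lower, 2.04 to 2.69), a call lost with TMM scaling. The growth inhibitor Btg2 and the phosphatase Dusp1, whose windows hold the cAMP response element, passed in no class, with ratios of 0.852 to 1.97 and 0.797 to 2.0. Ier5 did not pass either, with ratios of 1.13 to 2.95.

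Hspa1a spanned both directions. It was at 6039 and 17824 CPM in wild-type and KO endothelial-like cells (2.95-fold, 2.79 to 3.13), 2373 and 5991 in basal duct-like (2.52-fold, 2.39 to 2.67) and 1097 and 3483 in acinar-like cells (3.17-fold, 3.03 to 3.33). In ionocyte-like cells it was at 4859.8 and 2133 CPM (2.28-fold lower, 2.14 to 2.43). The ionocyte-like and acinar-like calls were lost with TMM scaling, so the gene then passed in 1 direction. The near-identical Hspa1b passed the rule in endothelial-like (743 and 2194 CPM), basal duct-like (309 and 1161) and acinar-like cells (178 and 558). The authors' counting could have divided reads between the copies, so the values of each alone are uncertain. Hspa1a over Hspa1b UMIs ran from 1.73 to 8.13 over the 7 classes and both libraries.

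Set against constitutive Hspa8 in the same cells, the inducible copies together gave a measure that does not depend on the class total. Hspa1a and Hspa1b over Hspa8 UMIs was 2.0 (1.83 to 2.19) in wild-type and 4.76 (4.55 to 4.98) in KO endothelial-like cells. It was 0.67 (0.644 to 0.697) and 1.05 (0.992 to 1.11) in basal duct-like cells. It was 2.01 (1.9 to 2.14) and 1.44 (1.35 to 1.53) in ionocyte-like cells. In tubule-like cells it was 1.59 (1.47 to 1.72) and 1.4 (1.34 to 1.46). Single clusters differed from these class values. The smaller wild-type basal duct-like cluster described below had 1.04 (0.985 to 1.1), with an interval that overlapped that of the KO cells, and the larger 0.442 (0.417 to 0.468). The smaller KO ionocyte-like cluster had 1.98 (1.83 to 2.16), overlapping the wild-type interval, and the larger 0.883 (0.799 to 0.975). In tubule-like cells the 109 kallikrein-rich KO cells had 0.526 (0.457 to 0.604), while the intervals of the other KO clusters overlapped that of the wild-type cells. In endothelial-like cells both KO clusters lay above the wild-type cells, 4.81 (4.59 to 5.04) and 3.86 (3.13 to 4.79). Hspa8 itself passed the rule in no class, with ratios of 0.729 to 1.78.

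Hspb1 was at 4560.2 and 10127 CPM in basal duct-like cells (2.22-fold, 2.13 to 2.31) and at 3074 and 1394 in ionocyte-like cells (2.2-fold lower, 2.04 to 2.39), and both calls were lost with TMM scaling. The Hsp70 co-chaperone Dnajb1 was lower past the rule in ionocyte-like cells (952 and 308 CPM, 3.09-fold lower, 2.63 to 3.63). In endothelial-like cells, where Hspa1a was higher, Dnajb1 was at 1561 and 1052 CPM (ratio 0.674, 0.589 to 0.772). Hsph1, an Hsp110 that recharges Hsp70, was at 491 and 134 CPM in ionocyte-like cells (3.66-fold lower, 2.89 to 4.67) and Hspe1 at 1521 and 585 (2.6-fold lower, 2.31 to 2.93). Hspe1 and Hspd1, the mitochondrial pair, were highest in basal duct-like cells in both libraries, at 2414 and 4915 and at 734 and 1127 CPM, and the intervals of Hspd1 overlapped those of the next class. Hsp90aa1, the inducible Hsp90, passed in no class, with ratios of 0.561 to 1.79.

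Socs3, a feedback inhibitor of JAK-STAT signalling, had a ratio above 1 in 7 of 7 classes and passed the rule in 4 of them, also under each of the 3 other scalings tried. It was at 125 and 528 CPM in basal duct-like (4.21-fold, 3.42 to 5.17), 407 and 1282 in endothelial-like (3.15-fold, 2.53 to 3.96) and 526 and 1575 in myoepithelial-like cells (2.99-fold, 2.45 to 3.67). In tubule-like cells it rested on 9 and 160 UMIs, 21.4 and 143 CPM (6.65-fold, 3.42 to 14.8). In ionocyte-like cells, where 17 of 18 immediate early genes had a ratio below 1, Socs3 was at 56.8 and 109.6 CPM (1.93, 1.25 to 3.06). Myc, a growth regulator, and Maff, a small Maf factor, were highest in basal duct-like cells in both libraries, although the wild-type interval of Myc overlapped that of cycling-like cells. Myc passed there at 141 and 431 CPM (3.07-fold, 2.47 to 3.79). Maff was at 837 and 1472 CPM there, and passed in acinar-like cells (22.1 and 68.7 CPM, 3.11-fold, 2.19 to 4.43). Gadd45b, a stress-induced signalling adaptor, passed in acinar-like cells (31 and 99.1 CPM, 3.2-fold, 2.39 to 4.3). With TMM scaling no member passed in acinar-like cells.

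Ionocyte-like cells, duct cells that express Foxi1 and Ascl3, were not uniform in the KO library. The wild-type library had 1 such cluster of 124 cells, with Jchain first among its leading genes (22167 CPM of immediate early and 18687 of heat shock genes). The KO library had 2, of 181 cells (8133 and 7291 CPM) and 107 cells (22660 and 12817 CPM). Against the wild-type cluster, the larger KO cluster was 2.73-fold (2.62 to 2.83) lower for immediate early genes, and 11 of 17 members with enough UMIs were lower past the rule and 0 higher, where 4.85% of all genes were lower and 2.78% higher. The smaller one had a ratio of 1.02, 0.993 to 1.05, with 0 of 18 lower and 0 higher, where 5.4% of all genes were lower and 2.86% higher. Fos was at 4515 CPM in the wild-type cluster, 1059 in the larger and 5932 in the smaller KO cluster. Heat shock genes were lower in both, 2.56-fold (2.46 to 2.67) and 1.46-fold (1.41 to 1.51), with 7 and 3 of 9 members past the rule. The immediate early difference of this class thus came with the larger KO cluster.

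Mitochondrial share differed between the libraries in ionocyte-like cells, and whether it bears on the level of these genes was not tested. Its median was 8.99% in the wild-type cluster and 14.5% and 16.2% in the larger and the smaller KO cluster, and the smaller had the higher immediate early level. Within cells of 10 to 20% mitochondrial UMIs, immediate early genes were at 19129 CPM in 57 wild-type and 14501 in 266 KO cells, and heat shock genes at 15154 and 9560.1. Both were thus lower in the KO library within this range too, though no member passed the rule in the heat shock group there. With no filter on that share, and clustered anew, the ratios were 1.01 for immediate early and 0.797 for heat shock genes, and 0 members were lower past the rule in any class.

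**Figure D3:**
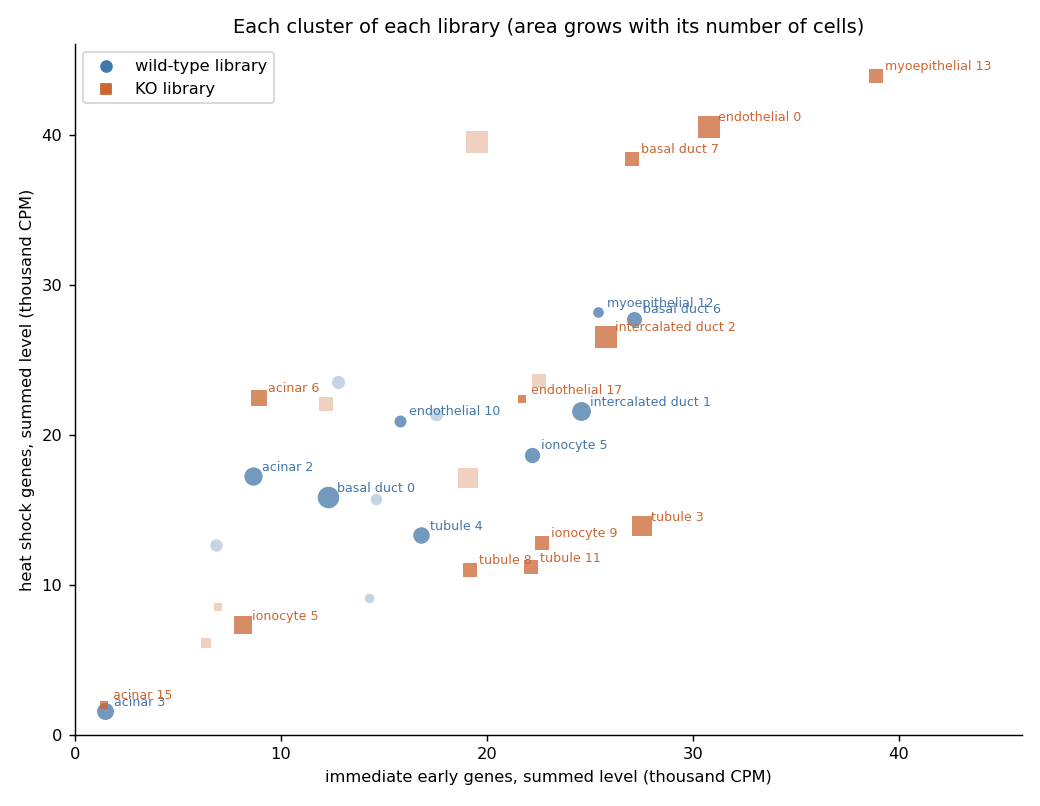
Each point is 1 cluster of the wild-type (circles) or KO library (squares), placed by its summed immediate early (x axis) and heat shock level (y axis), both in 1000 CPM, with area growing with cell number; labels give the class of compared clusters, and paler points are other clusters. The KO ionocyte-like clusters lie apart on the x axis (8133 and 22660 CPM), and so do the wild-type basal duct-like clusters (12274 and 27134 CPM).

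Basal duct-like cells, the layer of the ducts that expresses p63, were split in the wild-type library. Its larger cluster of 265 cells, with F3 and Fosl1 among its leading genes, had 12274 CPM of immediate early and 15845 of heat shock genes. The smaller one of 118 cells, with Ptn, Sostdc1 and Krt15, had 27134 and 27748. The single KO cluster had 27032 and 38420 CPM. Against the larger wild-type cluster the KO ratios were 2.2, 2.14 to 2.26 and 2.42, 2.37 to 2.48, with 7 of 18 immediate early and 5 of 9 heat shock members higher past the rule and 0 lower, where 2.22% of all genes were higher and 1.76% lower. Against the smaller they were 0.996, 0.97 to 1.02 and 1.38, 1.35 to 1.42, with 1 member each, Ier5 and Hspa1b, where 4.04% of all genes were higher and 3.08% lower. Socs3 and Myc passed against either, with Socs3 at 97.5 and 192 CPM in the wild-type clusters and 528 in the KO cluster. The immediate early difference of this class thus appeared against 1 of its wild-type clusters.

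Acinar-like cells fell into similar kinds of cluster in both libraries, in unequal numbers. Clusters led by secretoglobins and Car6 made up 157 of the 343 cells in the wild-type library and 29 of the 176 in the KO library, with medians of 8962 and 17146 UMIs. They had low levels of both groups, 1449.9 and 1418 CPM of immediate early and 1567 and 1995 of heat shock genes. Clusters with Smgc among their leading genes (186 and 147 cells) had 8626 and 8937 CPM of immediate early genes, a ratio of 1.04, 0.997 to 1.08. Their heat shock level was 17263 and 22492 CPM, a ratio of 1.3, 1.27 to 1.34. Between these Smgc-led clusters Hspa1a (3149.5 and 6752 CPM, 2.14-fold, 2.03 to 2.26), Hspa1b, Fosb and Nr4a1 passed the rule upward and none downward, where 9.56% of all genes were higher and 2.15% lower. Between the secretoglobin-led clusters no member passed, where 1.57% of all genes were higher and 1.43% lower. Both acinar ratios of the whole class were larger than those within either kind of cluster.

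In tubule-like cells, the duct segment that secretes kallikreins and Egf in the mouse gland, the 147 wild-type cells formed 1 cluster led by Egf. Against it, the immediate early ratio was 1.64, 1.6 to 1.69 in 235 KO cells led by Klk1 and Pcp4l1. It was 1.14, 1.09 to 1.19 in 109 kallikrein-rich cells with a median mitochondrial share of 1.85%, and 1.32, 1.28 to 1.37 in 100 cells led by Egf. The heat shock ratios of these clusters were 1.05, 0.828 and 0.839. In each cluster the immediate early ratio was thus the larger, and Ier3 passed the rule in each, where 3.17%, 9.06% and 1.7% of all genes were higher and 2.05%, 8.12% and 1.97% lower. In the kallikrein-rich cells, with a median of 1310 UMIs beside 2676 in the wild-type cluster, Ier2 was also higher past the rule. In the same cells 3 of 16 immediate early (Jund, Egr1 and Klf4) and 2 of 9 heat shock members (Hspa1b and Hsph1) were lower. Hspb1 was lower past the rule in the Egf-led cells. Endothelial-like cells differed through their main KO cluster of 295 cells (1.95, 1.88 to 2.02, and 1.94, 1.88 to 2.0), with 6 of 17 immediate early and 2 of 9 heat shock members higher and 0 lower, where 4.41% of all genes were higher and 2% lower. In 18 further KO cells with Sema3g and Hey1 the ratios were 1.37, 1.27 to 1.48, and 1.07, 0.994 to 1.15, and no member passed, where 5.81% of all genes were higher and 4.59% lower.

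In endothelial-like, basal duct-like and ionocyte-like cells the differences were seen in the median cell as well as in the sums. With each cell thinned to 1000 UMIs, the median immediate early count was 10 in 68 wild-type and 27 in 313 KO endothelial-like cells, and the heat shock count 18 and 34. In basal duct-like cells the medians were 11 and 21.5 for immediate early and 13 and 30 for heat shock genes. In ionocyte-like cells they were 18 and 9, and 16 and 6. The basal duct-like and ionocyte-like medians pool the unlike clusters described above. In acinar-like cells the medians were 4 and 5 for immediate early and 5 and 14 for heat shock genes. Cells of the libraries overlapped widely: in basal duct-like cells the upper quartile of immediate early UMIs was 21 in the wild-type and the lower quartile 11 in the KO library. Within classes, cells with more immediate early UMIs had more heat shock UMIs. Spearman's rho over thinned cells ran from 0.371 in 93 KO NK or innate lymphoid-like to 0.799 in 343 wild-type acinar-like cells, given as a description since both counts of a cell share its total. In classes of more than 1 cluster it also holds differences between clusters. The wild-type acinar-like clusters had 1449.9 and 8626 CPM of immediate early and 1567 and 17263 of heat shock genes.

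**Figure D4:**
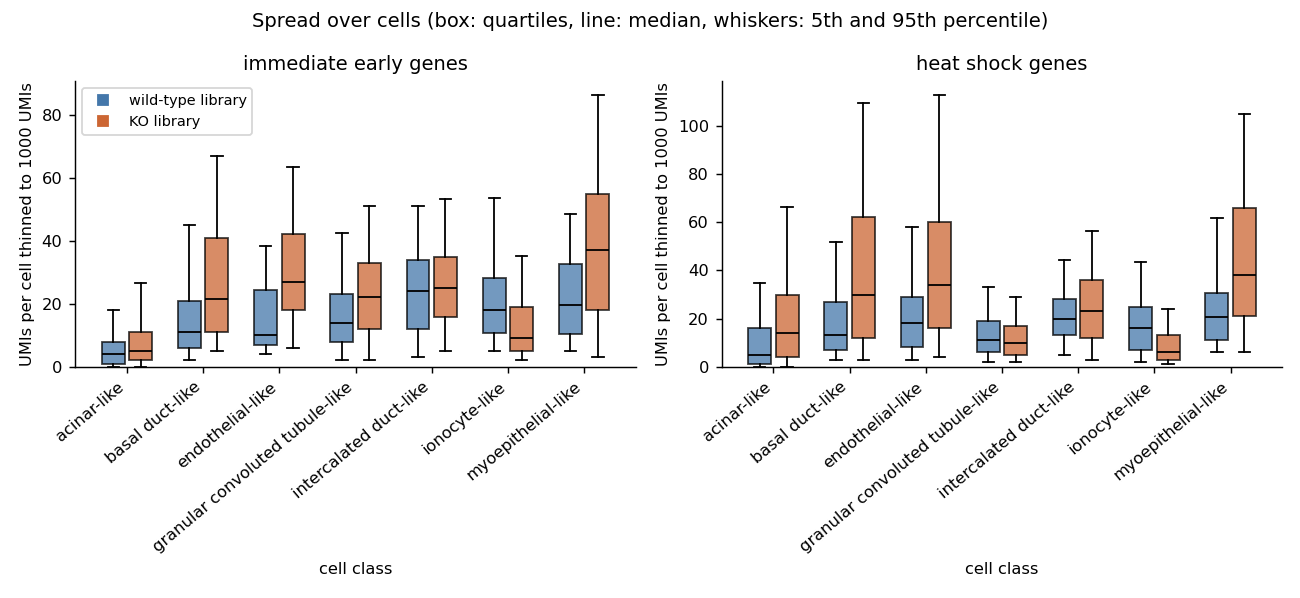
UMIs of immediate early (left) and heat shock genes (right) per cell after thinning to 1000 UMIs, in 7 cell classes of the wild-type and KO library; boxes are quartiles, lines medians and whiskers the 5th and 95th percentiles. On the left, KO medians lie above wild-type medians in endothelial-like (27 against 10), basal duct-like (21.5 against 11) and myoepithelial-like cells (37 against 19.5), and below in ionocyte-like cells (9 against 18).

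Both libraries were also read by mitochondrial share, over all barcodes with at least 200 genes. Under 5%, immediate early genes were at 11989 CPM in 789 wild-type and 20068 in 898 KO barcodes. They were at 15224 and 21119 between 5 and 10%, and at 13566 and 18840 between 10 and 20%. The KO level was thus higher in each range. Heat shock genes were at 14330 and 27076 CPM under 5% and at 12000 and 13417 between 10 and 20%. These ranges hold different cell types. Their totals include the mitochondrial UMIs, which by itself lowers levels at higher shares. Without these UMIs in the total, immediate early genes were at 12397 wild-type and 20726 KO CPM under 5%, and at 16108 and 25692 at 20% or more. Heat shock genes were then at 14817 and 27964 CPM under 5%, and at 14039 and 15522 at 20% or more. Within endothelial-like cells under 5% the levels were 14913 and 33486 CPM for immediate early and 21473 and 44567 for heat shock genes, and within basal duct-like cells under 5% they were 17855 and 30872, and 20227 and 44756. Between 5 and 10%, basal duct-like cells had 13961 and 20938 CPM of immediate early and 17533 and 28099 of heat shock genes. KO endothelial-like cells had 25186 and 32861 CPM there, with too few wild-type cells to compare. Any part of mitochondrial share in these differences was not tested.

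**Figure D5:**
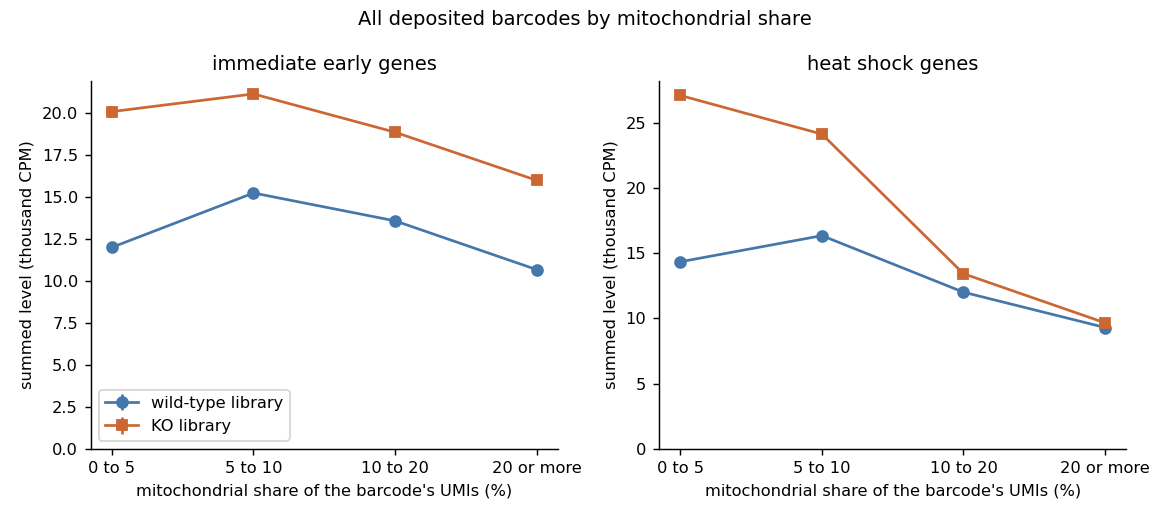
Summed level of immediate early and heat shock genes (y axes, 1000 CPM) over all barcodes with at least 200 genes, by the share of mitochondrial UMIs (x axes), with 95% counting intervals. The KO library (squares) lies above the wild-type library (circles) in each range, with heat shock levels of 27076 against 14330 CPM under 5% and 9652 against 9294 at 20% or more. Totals include mitochondrial UMIs, which by itself lowers levels at higher shares.

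Classes found in 1 library, or too small to compare, widened the range of levels. The unnamed KO cluster of 266 cells led by Ccl4, Ccl3, Cd74 and S100a8 had 19508 CPM of immediate early, 39513 of heat shock and 2869 of other early response genes. It held the highest KO levels of Hspa8 (9329 CPM), Dusp1 (2188) and Socs3 (1788), the last with an interval that overlapped that of myoepithelial-like cells. Wild-type macrophage-like cells (86 cells, 12741 and 23509 CPM) held the highest wild-type level of Hspa8, 5912 CPM. KO fibroblast-like cells (103) had 22543 and 23605 CPM. KO erythroid-like cells, whose RNA is mostly globin, had 6349 and 6095 CPM in 47 cells, and the part of free RNA in these values was not tested.

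Relatives of the members were read from lists of 41 early response, 38 chaperone and 25 upstream genes. Of 213 early response pairs, 17 (7.98%) were higher, 11 of them in acinar-like cells, and 7 (3.29%) lower, beside 3.87% and 2.04% over all genes and 12.5% higher in acinar-like cells. Pim3, a serum-responsive kinase, was higher past the rule in acinar-like (103 and 527 CPM, 5.13-fold, 4.44 to 5.94), endothelial-like (188 and 1005 CPM, 5.35-fold, 3.91 to 7.51), intercalated duct-like (146 and 681 CPM, 4.65-fold, 3.85 to 5.66) and myoepithelial-like cells (148 and 461 CPM, 3.11-fold, 2.14 to 4.63). In intercalated duct-like cells no member of the list had passed. Sgk1, a stress- and steroid-responsive kinase, was higher in endothelial-like cells (376 and 1237 CPM) and lower in tubule-like cells (462 and 186 CPM). Ccn1, a serum-induced matrix protein, and Zfp36l1, a relative of Zfp36, were lower in ionocyte-like cells, 3.27-fold (2.71 to 3.95) and 3.58-fold (2.9 to 4.43).

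Of 204 related chaperone pairs, 4 (1.96%) were higher and 6 (2.94%) lower, near the shares over all genes. Cryab, a small heat shock protein like Hspb1, was lower in endothelial-like (362 and 94.2 CPM), tubule-like (129 and 11.6), intercalated duct-like (2072 and 884) and ionocyte-like cells (875 and 153). In ionocyte-like cells it was 5.7-fold (4.63 to 7.08) lower. In endothelial-like cells it thus stood lower where Hspa1a stood higher. Dnaja1, an Hsp70 co-chaperone, was higher in basal duct-like cells (888 and 2042 CPM, 2.3-fold, 2.1 to 2.52). Of 74 pairs of upstream kinases and factors, 2 were higher, Stat3 and Mapk14 in acinar-like cells, and 0 lower.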

How the data were processed

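Droplet 3' v2 single-cell libraries were read from 2 tables of raw UMI counts per gene and barcode, deposited by the authors without normalization. The submitters' processing notes name the build mm10 and the tools bcl2fastq 2.19.1, Cell Ranger 2.1.0 and Seurat 3.1.2, with no role given. Of 27998 Ensembl genes, 27645 received a symbol from GENCODE. A 3' UMI count does not grow with transcript length, so CPM is compared between genes.

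Kept cells (at least 2175 wild-type and 1077 KO UMIs) were clustered per library with scanpy 1.11.5 and leidenalg 0.10.2 (Python 3.11.15): 10000 UMIs per cell, 2000 variable genes without the members, related lists and Trp63, 30 components, 15 neighbours, Leiden resolution 1. Clusters (14 wild-type, 18 KO) were named from 24 marker sets. A name needed 3 markers 2-fold higher with at least 10 UMIs, 1 of them among the top 50 genes, and no other set leading the top 10; this naming rule was chosen with the clusters in view. Scrublet marked 1 wild-type and 4 KO cells, so it did not work here and doublets were left in. UMIs were summed per class and scaled to 1000000 (CPM), with exact Poisson intervals for levels and exact conditional intervals for ratios; log2 ratios had 10 CPM added. TMM factors came from edgeR 4.0.16 (R 4.3.3). The size rule was run on simulated Poisson counts with known ratios. These hold no spread between cells or animals, so the check covers counting error only. Members past the size rule, the leading 3 of each group and the scarcest were named by rule, as were related genes past it in the most classes; other members and single clusters were described after their values had been seen. The members and lists were chosen with earlier results of these data known.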

Additional observations from a re-analysis of the deposited data

Results flagged for a closer look

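Hspa1a and Hspb1 passed the size rule in opposite directions in different cell classes; with 1 library per genotype the difference between classes was not tested. The log2 ratio of KO over wild-type library for Hspa1a was 1.66 in acinar-like, 1.33 in basal duct-like and 1.56 in endothelial-like cells and -1.18 in ionocyte-like cells. For Hspb1 it was 1.15 in basal duct-like and -1.13 in ionocyte-like cells. With TMM scaling the acinar-like and ionocyte-like calls of Hspa1a and both calls of Hspb1 were lost, so neither gene then passed in opposite directions. Between acinar-like clusters of the same kind Hspa1a was 2.14-fold and 1.53-fold higher, and the second did not pass.

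Barcodes with 20% or more mitochondrial UMIs enter class comparisons only in the alternative with no filter on mitochondrial share. They carried these genes at a higher level in the KO library, though their mix of cell types was not compared. Immediate early genes were at 15977 CPM in KO and 10664 in wild-type barcodes, heat shock genes at 9652 and 9294, and other early response genes at 531 and 326.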

How the results depend on the processing

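Basal duct-like, endothelial-like, myoepithelial-like and intercalated duct-like cells kept all 3 group ratios above 1 in each alternative that held the class, with immediate early ratios of 1.43 to 1.71, 1.7 to 2.82, 1.47 to 1.73 and 1.03 to 1.16 and heat shock ratios of 1.64 to 2.06, 1.68 to 2.85, 1.5 to 1.88 and 1.17 to 1.32. The ionocyte-like heat shock ratio stayed below 1, 0.469 to 0.797, in the 13 alternatives that held the class. No ionocyte-like class could be compared with the libraries clustered together, at resolution 0.5 or 2, with the gate or with the stricter filters. Of the settings that clustered the cells anew, those with all variable genes and with no mitochondrial filter held it. Acinar-like ratios moved most: for immediate early, heat shock and other early response genes they were 0.686, 1.37 and 1.39 with the libraries clustered together, 0.923, 1.46 and 1.86 at Leiden resolution 0.5, 0.814, 1.38 and 1.64 at resolution 2, 0.826, 1.4 and 1.64 with all variable genes, 0.903, 1.36 and 1.75 with a per-cell marker gate, 0.949, 1.5 and 1.85 with no filter on mitochondrial share, 0.891, 1.23 and 1.61 with TMM scaling and 0.963, 1.33 and 1.74 without the 20 most abundant genes in the total. The tubule-like other early response ratio was 2.34, 2.03, 2.11, 2.11, 1.9, 2.32 and 2.37 in the same order without TMM scaling, and the acinar-like one 2.4 and the tubule-like one 2.31 with cells thinned to 1000 UMIs. Endothelial-like ratios were 2.82, 2.85 and 2.49 at resolution 2. With no filter on mitochondrial share the ionocyte-like immediate early ratio was 1.01 and the other early response ratio 1.36. Pairs past the size rule, higher and lower, numbered 15 and 2 immediate early, 7 and 5 heat shock and 7 and 0 other early response pairs as reported. They numbered 1 and 2 immediate early, 0 and 0 heat shock and 1 and 0 other early response pairs with the libraries clustered together (3 classes), 7 and 0 immediate early, 5 and 0 heat shock and 4 and 0 other early response pairs at resolution 0.5 (5 classes), 13 and 3 immediate early, 8 and 1 heat shock and 7 and 0 other early response pairs at resolution 2, 7 and 2 immediate early, 4 and 2 heat shock and 8 and 0 other early response pairs with the gate, 8 and 0 immediate early, 3 and 0 heat shock and 3 and 0 other early response pairs without the mitochondrial filter (6 classes), 5 and 0 immediate early, 4 and 0 heat shock and 5 and 0 other early response pairs with stricter cell filters of 500 genes and 10% mitochondrial UMIs (3 classes), 8 and 1 immediate early, 6 and 5 heat shock and 4 and 0 other early response pairs with thinning, 10 and 1 immediate early, 4 and 3 heat shock and 6 and 0 other early response pairs with TMM, 15 and 1 immediate early, 6 and 4 heat shock and 8 and 0 other early response pairs without mitochondrial and ribosomal protein genes in the total and 23 and 4 immediate early, 9 and 6 heat shock and 11 and 1 other early response pairs at 2-fold whatever the interval. Counts fall by construction where fewer classes were compared; for the other shifts the cause was not tested.

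Of the alternatives chosen after seeing the data, the Smgc-led acinar clusters gave 1.3 for heat shock and 1.84 for other early response genes, and the Egf-led tubule clusters 1.51 for other early response genes. Cells under 10% mitochondrial UMIs (4 classes) gave 11 and 0 immediate early, 7 and 0 heat shock and 6 and 0 other early response pairs. Cells with 10 to 20% (2 classes) gave 4 and 1 immediate early, 0 and 0 heat shock and 1 and 0 other early response pairs, a tubule-like heat shock ratio of 1.06 and other early response ratios of 2.31 in tubule-like and 1.05 in ionocyte-like cells. Without the 5% deepest cells the ionocyte-like heat shock ratio was 0.469, and without the 20 most abundant genes the counts were 9 and 1 immediate early, 5 and 3 heat shock and 6 and 0 other early response pairs. No paired analysis was possible, since the labels give no pairing and each genotype has 1 library. Depth limits scarce members such as Egr2 and Myc, which had under 50 UMIs in some classes.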
